A study of Drosophila melanogaster with 9 samples.

Results

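The genes described here code for the machinery that stores transmitter in synaptic vesicles, releases it and recovers the vesicle membrane. The list held 35 genes, chosen by function from the annotation of the array. Of these, 28 had at least 1 probe set naming that gene alone, among 11982 named genes in all, and 7 had none. Syt1, Syt4, Syx1A, comt and Nsf2 were not analysed here. A single probe set named both stnA and stnB, the 2 reading frames of the stoned transcript, and it was counted for neither gene.

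Cells carrying a membrane marker were sorted from the body wall of larvae of the last, wandering instar, 80 body walls to a sample, and their RNA was measured on 9 arrays, 3 biological replicates to a group. The larvae of every sample were reared at 25 degrees C. In Ab ME, ectopic Abrupt came from 1 copy of UAS-abL over +, added to the marker chromosome, which was itself over +. In Kn ME, ectopic Knot came from UAS-knL:HA, carried opposite the marker chromosome. Control larvae had the marker chromosome over + and no further transgene. That chromosome, common to the 3 groups, held the driver GAL4[21-7], which the labels give as active in every class of dendritic arborization (da) neuron, and the membrane marker UAS-mCD8:GFP. Each sample pooled many animals, and the comparison asks which transcripts of the sorted cells differ when either transcription factor is misexpressed.

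At a synapse, the vesicle protein neuronal synaptobrevin pairs with syntaxin and SNAP-25 of the plasma membrane in the SNARE complex that drives fusion. Synaptotagmins sense calcium, complexin clamps and primes the complex, and active zone proteins such as Bruchpilot place vesicles beside calcium channels. Clathrin adaptors, the dynamin Shibire and the lipid phosphatase synaptojanin then retrieve the membrane. Larval sensory neurons of the body wall are known as cholinergic: choline acetyltransferase makes the transmitter, and the transporter VAChT, whose gene lies inside that of the enzyme, loads it into vesicles.

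The sorted cells carried signal of several cell types, and the markers of these types differed between the groups. The mean log2 value of 10 neuron markers, none of them a synaptic gene of the list, was 2.45 to 3.00 on the Ab ME arrays, 3.11 to 3.46 on the Kn ME arrays and 4.49 to 4.85 on the Control arrays. For 14 hemocyte markers it was 9.17 to 9.39 in Ab ME, 8.695 to 8.85 in Kn ME and 6.08 to 7.68 in Control. The neuronal gene elav averaged 4.82 ± 0.12, 5.42 ± 0.36 and 6.27 ± 0.20 (SD, n = 3 each) in Ab ME, Kn ME and Control. Hml of hemocytes stood at 11.5, 10.8 and 8.66. Markers of other body wall tissues fell as well: 8 of 10 muscle, 4 of 8 epidermal and 3 of 4 tracheal markers in Ab ME, with medians of -3.17, -2.14 and -1.87, and 0, 2 and 3 of them in Kn ME, with medians of -0.57, -1.39 and -1.44. Of 11 glial markers, 4 fell and 1 rose in Ab ME and 3 fell and 1 rose in Kn ME, and their mean was 3.73 to 3.99 in Ab ME, 4.05 to 4.60 in Kn ME and 4.23 to 4.94 in Control. The glial transcription factor repo itself averaged 1.11, 0.77 and 1.63, against 1.54 for the median of all values. Of 4 da neuron markers, ct rose (1.62 in Ab ME and 1.10 in Kn ME) and ppk26 fell (-5.69 and -2.03). The others, ppk and kn, lay below Control on all arrays of both groups without passing, and kn is itself the gene misexpressed in Kn ME. The median of the 4 was -2.21 in Ab ME and -1.94 in Kn ME. Their mean level was 2.07 to 2.10 in Ab ME, 2.77 to 3.19 in Kn ME and 3.38 to 4.935 in Control. A smaller share of neurons in the sorted pool and less of a transcript per neuron cannot be told apart in these samples. For ab there was no named probe set. The brighter of 2 kn probe sets averaged 0.61, 0.60 and 2.76 and the dimmer one 0.85, 0.96 and 0.97, so that neither was higher in the arrays labelled Kn ME; whether they read the transgene is not given in the sources used here, so neither gene checks the labels.

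With ectopic Abrupt, 6 of the 28 synaptic genes fell and 2 rose (limma, adjusted p under 0.05 over all probe sets). The falls were nSyb, cpx, Snap25, VAChT, brp and Sytalpha, and the rises shi and Eps-15. The falls made up 21.4% of the genes, against 5.96% of all named genes that were called lower, and the rises 7.14%, against 11.2% of all named genes called higher. The median difference over the 28 genes was -0.27 log2 units, against -0.01 over all named genes, and 20 genes did not pass. At an unadjusted p under 0.05, 10 of the 28 were lower and 6 higher, against 13.3% and 21.6% of all named genes.

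With ectopic Knot, 4 of the 28 genes fell and 1 rose. The falls were nSyb, cpx, Snap25 and VAChT, all of which also fell with Abrupt, and the rise was Eps-15. The falls made up 14.3%, against 2.32% of all named genes called lower, and the rise 3.57%, against 4.18% called higher. The median difference was -0.23 log2 units over the synaptic genes and 0.002 over all named genes. At an unadjusted p under 0.05, 9 of the 28 were lower and 5 higher, against 8.91% and 14.3% of all named genes. Both comparisons use the same 3 Control arrays, so their shared calls are not independent of each other.

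**Figure D1:**
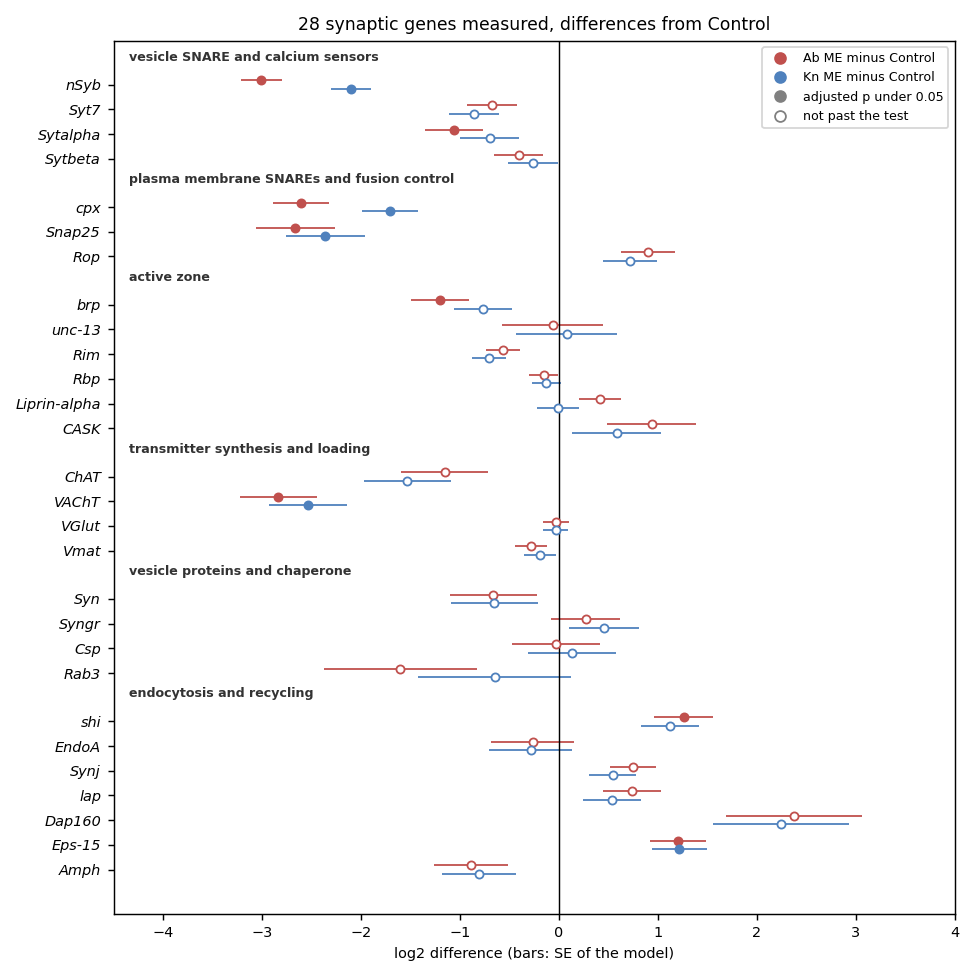
Log2 differences of the 28 measured synaptic genes from Control, grouped by role, with Ab ME in red and Kn ME in blue. Bars are the standard error of the model and filled points passed the test. The 4 genes furthest left in both comparisons are nSyb, VAChT, Snap25 and cpx, and all filled points on the right belong to shi and Eps-15.

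Scaling changed the balance of these calls. Quantile normalization of the deposited values once more gave 5 falls with 0 rises in each group. Centring each array on its median, which raised the median difference of all named genes by 0.17 in Ab ME and by 0.11 in Kn ME, gave 5 falls with 5 rises in Ab ME, and 4 with 2 in Kn ME. Of all calls in Ab ME, 65.3% were higher as deposited, 51.3% after the quantile step and 77.3% after centring. In Kn ME these shares were 64.3%, 48.8% and 73.7%. The falls of nSyb, cpx, Snap25 and VAChT passed under each of these scalings in both groups, whereas 0 rises passed after the quantile step.

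The vesicle SNARE nSyb, neuronal synaptobrevin, had the smallest adjusted p of the list. Its values were 3.69, 3.73 and 4.04 on the Ab ME arrays, 5.08, 4.74 and 4.35 on the Kn ME arrays, and 6.78, 6.73 and 6.97 on the Control arrays. The 3 groups did not overlap, with Ab ME lowest, Kn ME between and Control highest. Relative to Control the level was 8.04-fold lower in Ab ME (log2 -3.01, SE 0.20, limma adjusted p = 0.000157) and 4.3-fold lower in Kn ME (log2 -2.10, SE 0.20, adjusted p = 0.00218). Both falls passed in all 17 alternatives, with an adjusted p of at most 0.00166 and 0.021. On the same arrays elav differed by -1.45 (adjusted p = 0.00297) and -0.85 (adjusted p = 0.0502) log2 units. Differences of the 10 neuron markers ran from -4.55 to -0.25 in Ab ME and from -3.32 to -0.15 in Kn ME. Their medians were -1.79 and -0.98. Both nSyb differences lay inside these ranges, but of the 10 markers only jus (-4.55 and -3.32) and futsch (-3.04 and -2.63) fell further than nSyb. The part that the share of neurons has in the fall of nSyb was not tested.

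Synaptobrevin also exists as Syb, a copy used in secretion by many cell types. Syb, chosen for mention after its values were seen, averaged 10.2 ± 0.30 in Ab ME, 10.1 ± 0.30 in Kn ME and 9.36 ± 0.39 in Control. Its differences of 0.80 and 0.72 did not pass (adjusted p = 0.0721 and 0.156). Whether nSyb and Syb differ in their response was not tested.

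Synaptotagmins are the calcium sensors of vesicles and other secretory organelles, and of those listed Syt7, Sytalpha and Sytbeta were measured. Sytalpha read 0.75, 0.44 and 0.71 in Ab ME, 1.07, 0.955 and 0.955 in Kn ME, and 2.44, 1.49 and 1.15 in Control. All Ab ME and Kn ME arrays were below all Control arrays, but only 1 Control array stood above the median of all values, so that the size of the difference is uncertain. In Ab ME the difference was -1.06 (SE 0.30, adjusted p = 0.0478), and 6 of 16 alternatives kept it past the threshold, the others reaching an adjusted p of 0.144. In Kn ME it was -0.70 and did not pass (adjusted p = 0.234). Syt7 differed by -0.68 and -0.86 (adjusted p = 0.115 and 0.0967) and Sytbeta by -0.41 and -0.26 (adjusted p = 0.302 and 0.61), both from Control means close to or below that median.

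Of the plasma membrane and fusion proteins, the complexin gene cpx and Snap25 fell in both groups. Complexin binds assembled SNARE complexes and holds back spontaneous release. The brightest cpx probe set read 6.29, 6.93 and 5.97 in Ab ME, 7.02, 7.655 and 7.22 in Kn ME, and 8.90, 9.34 and 8.77 in Control, and the groups did not overlap. It was lower by 6.09-fold in Ab ME (log2 -2.61, SE 0.285, adjusted p = 0.000927) and by 3.26-fold in Kn ME (log2 -1.71, SE 0.285, adjusted p = 0.0151). The second cpx probe set read 3.00, 2.05 and 3.205 in Ab ME, 2.62, 4.82 and 4.49 in Kn ME, and 4.54, 4.89 and 5.80 in Control. It was lower in Ab ME (-2.325, adjusted p = 0.0372), whereas its Kn ME arrays overlapped Control and the difference of -1.10 did not pass (adjusted p = 0.361). The call for Kn ME was also lost without Kn ME replicate 1 or replicate 3 and with array weights (adjusted p up to 0.0571).

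Snap25, the SNAP-25 gene whose protein gives the fusion complex a pair of its helices, read 0.71, 0.63 and 0.91 in Ab ME, 0.55, 0.69 and 1.91 in Kn ME, and 3.40, 2.83 and 4.01 in Control. Every array of Ab ME and Kn ME lay below every Control array. The difference was -2.66 in Ab ME (SE 0.40, adjusted p = 0.00408) and -2.36 in Kn ME (SE 0.40, adjusted p = 0.0158). The means of both misexpression groups lie under 1.54, the median over the arrays, and how far such values exceed background is unknown. The call for Kn ME was lost without Kn ME replicate 1 or replicate 2 and with only the 6 arrays compared (adjusted p up to 0.0675), while that for Ab ME passed in all 17 alternatives. Its relative Snap24, likewise chosen after its values were seen, averaged 7.21 in Ab ME, 7.17 in Kn ME and 7.01 in Control, with differences of 0.21 and 0.16 (adjusted p = 0.783 and 0.88).

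Rop, the Munc18 protein that binds syntaxin, was above Control on all arrays of both groups, but the differences of 0.90 and 0.71 did not pass (adjusted p = 0.0626 and 0.188). Its mean was 4.93 ± 0.15 in Ab ME, 4.75 ± 0.04 in Kn ME and 4.04 ± 0.60 in Control. In Ab ME the difference passed in 3 of 17 alternatives, among them without Control replicate 2 (lowest adjusted p = 0.00533).

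**Figure D2:**
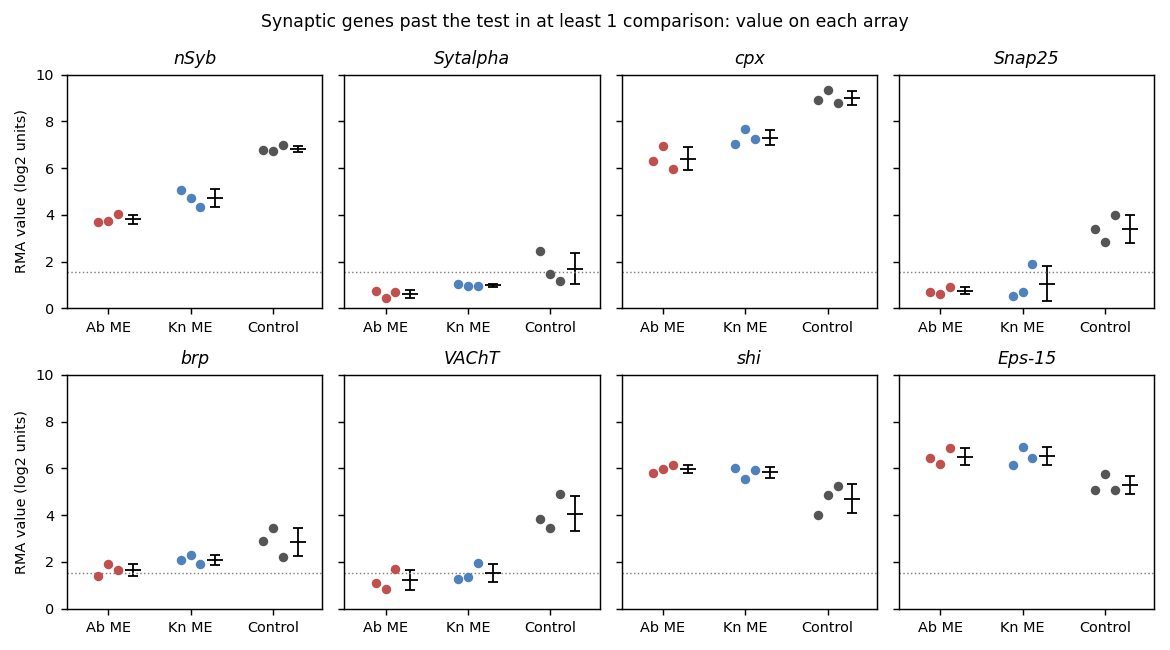
RMA value in log2 units on each of the 9 arrays for the 8 synaptic genes past the test in at least 1 comparison. Coloured points are arrays, black marks the mean with the SD over 3 arrays, and the dotted line is the median of all values, 1.54. Snap25, VAChT and Sytalpha have both misexpression means below that line, and nSyb, cpx and Sytalpha have the 3 groups apart.

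The cholinergic genes were lower on the arrays of both groups, and VAChT passed. VAChT read 1.12, 0.86 and 1.68 in Ab ME, 1.25, 1.34 and 1.96 in Kn ME, and 3.85, 3.43 and 4.89 in Control. The groups did not overlap with Control. The differences were -2.84 (SE 0.39, adjusted p = 0.00275) in Ab ME and -2.54 (SE 0.39, adjusted p = 0.0111) in Kn ME, from misexpression means of 1.22 and 1.52 that lie below the median of all values. The Ab ME call passed in all 17 alternatives and the Kn ME call in 16, with an adjusted p of 0.05001 without Kn ME replicate 2.

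ChAT, the enzyme gene that encloses VAChT, read 3.01, 3.63 and 3.48 in Ab ME, 2.81, 2.18 and 4.0 in Kn ME, and 4.68, 4.04 and 4.87 in Control. Its arrays too lay below Control in both groups, but the differences of -1.16 (SE 0.44, adjusted p = 0.12) and -1.53 (SE 0.44, adjusted p = 0.0901) did not pass. Without Kn ME replicate 3, whose value of 4.0 was the highest of that group, they did (adjusted p = 0.0452 in Ab ME and 0.0251 in Kn ME). The choline transporter gene ChT, from the wider list of presynaptic genes below, averaged 1.698 ± 0.75 in Ab ME, 1.69 ± 0.82 in Kn ME and 4.46 ± 0.98 in Control. It fell by 2.77 log2 units in Ab ME (-2.77, adjusted p = 0.0194) and in Kn ME (-2.78, adjusted p = 0.0364), and these calls were kept by 15 and 8 of 17 alternatives (highest adjusted p = 0.0694 and 0.11).

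The loaders of other transmitters were dim in every group. VGlut, the glutamate transporter of motor neurons, averaged 0.85, 0.84 and 0.88 in Ab ME, Kn ME and Control, with differences of -0.03 and -0.03 (adjusted p = 0.903 and 0.914). Vmat, which loads amines, averaged 1.11, 1.196 and 1.39, with differences of -0.28 and -0.195 (adjusted p = 0.28 and 0.557). All of these means are below the median of all values, so a fall could not have been seen clearly in either gene. Neither gene had a higher mean in a misexpression group than in Control.

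Of 6 active zone genes, limma called 1 in Ab ME, as a fall, and 0 in Kn ME. At an unadjusted p under 0.05, 2 of the 6 were lower in each group, where 13.3% of all named genes were lower in Ab ME and 8.91% in Kn ME. Bruchpilot, coded by brp, forms the filaments that tether vesicles at the release site. Its brightest probe set read 1.39, 1.90 and 1.67 in Ab ME, 2.07, 2.31 and 1.89 in Kn ME, and 2.91, 3.43 and 2.23 in Control. The Ab ME arrays were all below Control (-1.20, SE 0.30, adjusted p = 0.0305), while the Kn ME arrays overlapped it (-0.77, adjusted p = 0.195). Of the 3 other brp probe sets, 1 also passed in Ab ME (-1.71, adjusted p = 0.0291), and the others, at -0.77 and -0.54, did not (adjusted p = 0.053 and 0.218). The fall of the brightest one passed in 9 of 17 alternatives, with an adjusted p up to 0.106 in the others. The lost calls included each fit without an Ab ME array, without Control replicate 1 or 2 or without Kn ME replicate 1.

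Rim, a scaffold that links vesicles to calcium channels, was lower on all arrays of both groups for its brightest probe set. It averaged 3.63 ± 0.22 in Ab ME, 3.49 ± 0.14 in Kn ME and 4.197 ± 0.21 in Control, differences of -0.57 (SE 0.17, adjusted p = 0.063) and -0.71 (SE 0.17, adjusted p = 0.0532) that did not pass. Both passed after quantile normalization and without Control replicate 2, with the lowest adjusted p at 0.00916 and 0.0168. The other Rim probe sets differed by -0.64 and -0.68 in Ab ME and by -0.70 and -0.42 in Kn ME, and did not pass.

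The remaining active zone genes did not pass, and they moved to either side. CASK, a membrane scaffold kinase, differed by 0.94 and 0.58 (adjusted p = 0.199 and 0.521) and Liprin-alpha, an organiser of active zones, by 0.41 and -0.01 (adjusted p = 0.235 and 0.987). The priming factor unc-13 differed by -0.06 and 0.08 (adjusted p = 0.946 and 0.951), with Control values spread from 1.86 to 4.265. The Rim-binding protein gene Rbp differed by -0.15 and -0.13 (adjusted p = 0.509 and 0.677) around the median of all values. The median over the 6 genes, -0.11 in Ab ME and -0.07 in Kn ME, turned to 0.06 and 0.04 with centring.

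The vesicle proteins Syn, Syngr and Rab3 and the chaperone Csp gave 0 calls in either group by limma, also at an unadjusted p under 0.05. Rab3, a vesicle GTPase, read 1.00, 0.805 and 1.95 in Ab ME, 1.19, 2.30 and 3.12 in Kn ME, and 1.32, 4.41 and 2.83 in Control, and the groups overlapped (-1.60 and -0.65, adjusted p = 0.204 and 0.691). Csp, the cysteine string protein that keeps SNAP-25 folded, had means of 5.675 in Ab ME, 5.83 in Kn ME and 5.70 in Control (differences -0.03 and 0.13, adjusted p = 0.973 and 0.902). For synapsin, Syn, the differences were -0.67 and -0.65 (adjusted p = 0.339 and 0.464), and for synaptogyrin, Syngr, 0.27 and 0.45 (adjusted p = 0.637 and 0.525). Without Control replicate 1, Rab3 and Syn were called lower in Ab ME (adjusted p = 0.0493 and 0.0496).

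The rises lay among the endocytosis genes. Of 7 measured, 2 rose and 0 fell in Ab ME, and 1 rose and 0 fell in Kn ME, with medians of 0.75 and 0.54 log2 units. Since 11.2% of all named genes rose in Ab ME and 4.18% in Kn ME, so few calls do not set these 7 genes apart. After quantile normalization the medians were 0.45 and 0.34 with 0 calls, and after centring 0.92 and 0.65. Many of these genes also work in cells other than neurons, and the hemocyte markers rose on the same arrays, 13 of 14 in Ab ME and 7 of 14 in Kn ME. The part that hemocytes have in these rises was not tested.

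Dynamin, coded by shi, cuts endocytic vesicles from the membrane. Its brightest probe set read 5.78, 5.98 and 6.135 in Ab ME, 5.999, 5.57 and 5.92 in Kn ME, and 4.01, 4.88 and 5.23 in Control. Every array of both misexpression groups was above every Control array. The rise passed in Ab ME (1.26, SE 0.30, adjusted p = 0.0262) but not in Kn ME (1.12, SE 0.30, adjusted p = 0.0695). A second shi probe set gave 1.498 and 1.35 (adjusted p = 0.0383 and 0.0924), and the dimmest 0.66 and 0.63 (adjusted p = 0.292 and 0.424). The Ab ME call passed in 12 of 17 alternatives and was lost without any single Ab ME array, after quantile normalization and with only the 6 arrays compared (adjusted p up to 0.114).

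Eps-15, a clathrin adaptor that gathers cargo at the pit, rose in both groups. It read 6.42, 6.20 and 6.89 in Ab ME, 6.16, 6.93 and 6.465 in Kn ME, and 5.095, 5.74 and 5.07 in Control, with no overlap between either group and Control. The differences were 1.20 (SE 0.28, adjusted p = 0.0255) in Ab ME and 1.22 (SE 0.28, adjusted p = 0.045) in Kn ME. The Ab ME rise held in 12 of 17 alternatives (highest adjusted p = 0.107), failing among others without Ab ME replicate 1 or 3 and without Control replicate 1 or 3. The Kn ME rise passed in only 4 (adjusted p up to 0.144), and failed without any single Ab ME or Kn ME array and without Control replicate 1 or 3.

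Dap160, the intersectin that binds Eps-15 and dynamin, had the widest spread in Control. It read 6.21, 6.14 and 5.96 in Ab ME, 5.67, 6.32 and 5.93 in Kn ME, and 5.04, 4.30 and 1.84 in Control. All misexpression arrays were above Control, and the differences of 2.37 (SE 0.69, adjusted p = 0.0545) and 2.25 (SE 0.69, adjusted p = 0.108) did not pass. Without Control replicate 3 they were 1.43 and 1.30 with adjusted p = 0.0141 and 0.037. Leaving out Control replicate 1 instead gave 3.03 and 2.90, with adjusted p = 0.0154 and 0.0289, so that all of these passed. Over all alternatives they passed in 7 and in 2 of 17. Its dimmer probe set differed by 0.19 and 0.145 (adjusted p = 0.63 and 0.792).

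Among the other endocytic genes, synaptojanin, Synj, differed by 0.75 and 0.54 (adjusted p = 0.0709 and 0.25), and endophilin, EndoA, which bends the membrane and recruits it, by -0.27 and -0.29 (adjusted p = 0.699 and 0.757). Amphiphysin, Amph, differed by -0.89 and -0.81 (adjusted p = 0.153 and 0.284). In flies it is known from muscle tubules, and the 10 muscle markers had a mean of 3.95 to 4.52 in Ab ME, 6.03 to 6.59 in Kn ME and 6.02 to 7.22 in Control. The part that muscle cells have in the differences of Amph was not tested. The clathrin adaptor lap, the fly AP180, had probe sets of opposite sign. The brighter one read 4.035, 3.46 and 4.14 in Ab ME, 3.80, 3.37 and 3.87 in Kn ME, and 3.51, 2.56 and 3.36 in Control (differences 0.73 and 0.54, adjusted p = 0.134 and 0.363). The dimmer one read 1.68, 2.95 and 3.40 in Ab ME, 2.00, 1.62 and 3.69 in Kn ME, and 2.76, 3.585 and 3.64 in Control (-0.65 and -0.89, adjusted p = 0.499 and 0.465). No direction can be given for lap. The probe set of the stoned transcript differed by -0.75 and -0.45 (adjusted p = 0.175 and 0.509), from a Control mean of 1.35.

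**Figure D3:**
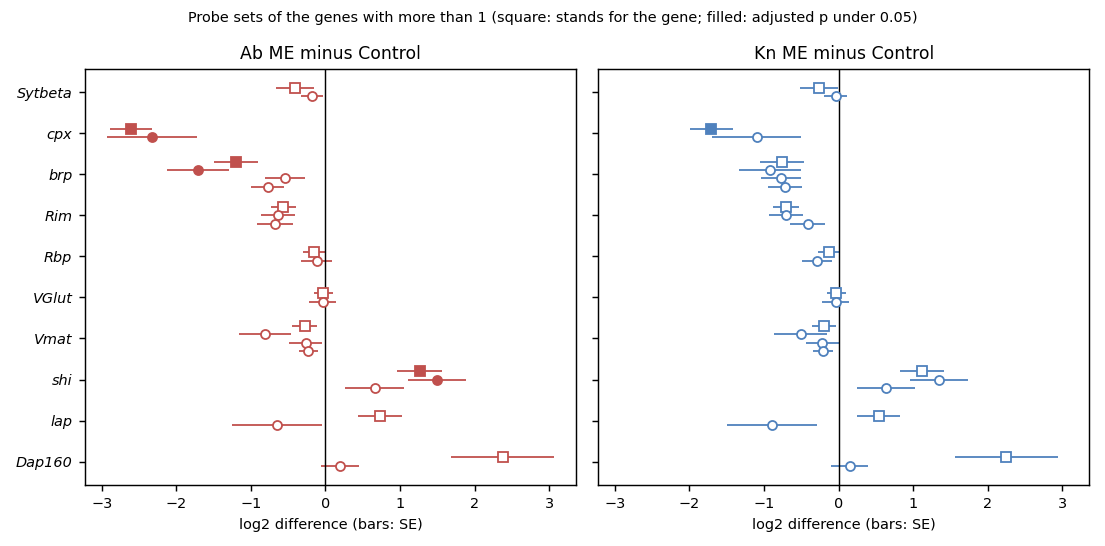
Log2 difference from Control for each probe set of the 10 synaptic genes with more than 1, in Ab ME (left) and Kn ME (right). Squares mark the probe set that stands for its gene, filled symbols passed the test and bars are the SE of the model. The probe sets of brp, Rim and shi lie on 1 side of 0 in both panels, those of lap on both sides.

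No synaptic gene differed between Kn ME and Ab ME in the limma test, where 0.292% of all named genes were called higher and 0.309% lower in Kn ME. At an unadjusted p under 0.05, 2 of the 28 genes were higher in Kn ME and 0 lower, against 4.18% and 6.08% of all named genes. The 2 were nSyb (0.90, SE 0.20, adjusted p = 0.135) and cpx (0.90, SE 0.285, adjusted p = 0.329), both with all Kn ME arrays above all Ab ME arrays. With array weights nSyb passed (adjusted p = 0.0394), the 1 call over all alternatives. The differences of Snap25 and VAChT were 0.30 (SE 0.40) and 0.30 (SE 0.39), those of shi and Eps-15 -0.14 (SE 0.30) and 0.01 (SE 0.28).

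A wider list of 83 presynaptic genes, chosen by function with earlier results of these data known, had 72 measured. Of these 6 rose and 7 fell in Ab ME, and 4 rose and 4 fell in Kn ME, around medians of -0.05 and 0.17 log2 units. The rises made up 8.33% in Ab ME and 5.56% in Kn ME, against 11.2% and 4.18% of all named genes, and the falls 9.72% and 5.56%, against 5.96% and 2.32%. The falls in Ab ME lay among 26 release genes, with 5, and 12 transmitter supply genes, with 2. The rises comprised 3 of 16 endocytosis genes, 2 of 5 further synaptotagmin and vesicle genes and 1 supply gene. The 13 subunits of the vesicle proton pump had 0 calls in Ab ME and 1 rise in Kn ME. At an unadjusted limma p under 0.05, 1 of the 13 was higher in Ab ME and 3 in Kn ME, against 21.6% and 14.3% of all named genes.

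Among these genes nwk, an adaptor that restrains growth of the synapse, fell by 1.31 in Ab ME (adjusted p = 0.00583) and by 1.32 in Kn ME (adjusted p = 0.0139), and the dopamine transporter gene DAT fell by 1.42 and by 1.39 (adjusted p = 0.0184 and 0.0375). Both had misexpression means below the median of all values, from 0.65 to 0.94. The rises were those of Esyt2, an extended synaptotagmin that tethers the endoplasmic reticulum to the plasma membrane (1.37 and 0.81, adjusted p = 0.00102 and 0.0219), and of AP-1-2beta, a clathrin adaptor subunit (0.99 and 0.81, adjusted p = 0.00938 and 0.0404). In Ab ME the vesicle carrier protein Scamp (1.51, adjusted p = 0.0167) and auxilin, aux, which uncoats clathrin (1.55, adjusted p = 0.0168), also rose, and in Kn ME the exocyst subunit Sec5 did (1.18, adjusted p = 0.0372). The Kn ME calls of AP-1-2beta, ChT, DAT and Sec5 passed in 3, 8, 8 and 6 of their alternatives. Each of these, and the Kn ME call of Esyt2, was lost without any single Kn ME array.

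**Figure D4:**
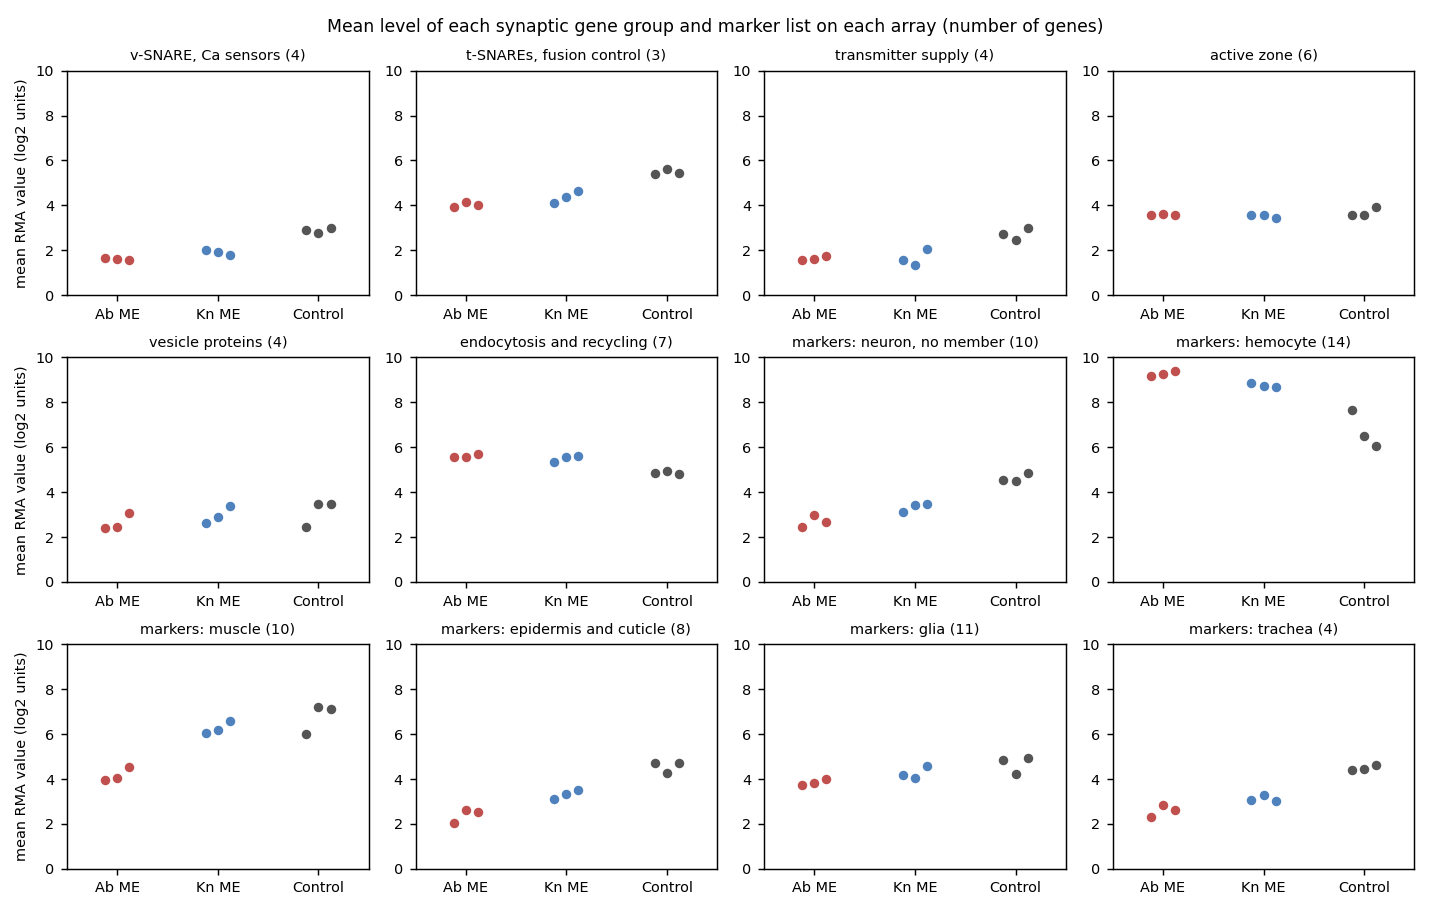
Mean RMA value in log2 units over each role of the synaptic list and each marker list on the 9 arrays (da neuron markers are not drawn), with Ab ME in red, Kn ME in blue and Control in grey; the number of genes is in each title. The fusion, calcium sensor and transmitter panels lie below Control in both misexpression groups, as do the neuron, epidermal and tracheal markers, while the endocytosis panel lies above, as do the hemocyte markers. The muscle markers lie below Control in Ab ME and overlap it in Kn ME.

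The mean over the 4 vesicle SNARE and calcium sensor genes was 1.56 to 1.63 in Ab ME, 1.81 to 2.01 in Kn ME and 2.76 to 3.00 in Control. Over the 4 transmitter genes, of which VGlut and Vmat differed little, it was 1.57 to 1.74 in Ab ME, 1.34 to 2.03 in Kn ME and 2.43 to 3.00 in Control. The 6 active zone genes overlapped, at 3.55 to 3.60, 3.43 to 3.57 and 3.55 to 3.93. The 7 endocytosis genes stood at 5.55 to 5.72, 5.36 to 5.62 and 4.81 to 4.95 in Ab ME, Kn ME and Control, although EndoA and Amph had negative differences. Of the 10 neuron markers, 5 fell in Ab ME and 3 in Kn ME, where 5.96% and 2.32% of all named genes were called lower. The medians of these 10 markers were -1.79 and -0.98 log2 units. The part that the neuron, muscle, epidermal and tracheal cells have in the differences of the synaptic genes was not tested.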

How the data were processed

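RNA of 9 samples of sorted larval body wall cells, 3 each of Ab ME, Kn ME and Control, was measured on single-colour Affymetrix arrays with biotin label. The authors made the deposited log2 values with RMA, per the submitters' processing notes; their range fits base 2, which no source states, and no version, scan date or detection call is given in the labels, so the number of arrays limits the precision. Of 18952 probe sets, 183 controls were left out and 18769 tested; 13647 carried 1 gene symbol in the platform annotation, 402 several and 4720 none, and 13544 were brought to current symbols through a gene table of Release 6 plus ISO1 MT. The probe set with the highest mean stood for its gene, and 0 array pairs were identical.

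Group means were fitted over the 9 arrays together with limma 3.58.1 in R 4.3.3 and was tested on simulated data. Tests were 2-sided and moderated, with Benjamini-Hochberg adjustment over the 18769 probe sets and a threshold of 0.05; SE is that of the model. The synaptic genes, the lists and the rule for naming genes (every synaptic gene with a probe set, and up to 6 called genes with the smallest p in the wider list) were chosen with earlier results of these data known. Alternatives changed the normalization, centring, filter, probe set rule, prior, weights, arrays fitted and replicate block, or left out 1 array. No genome or sequence table was used here.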

Additional observations from a re-analysis of the deposited data

How the results depend on the processing

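The falls of nSyb, cpx, Snap25 and VAChT in Ab ME passed in all 17 alternatives. Recomputed were 2214 single-gene values, for the measured synaptic genes, elav and the called genes of the wider list. Of these, 0 changed sign where the main or the recomputed value passed the threshold. Differences that passed in neither could change sign, as that of CASK in Kn ME did (0.58, lowest -0.02). Synaptic genes lower in Ab ME than in Control numbered 6 (4 to 7 leaving out 1 array), and genes higher 2 (0 to 3). In Kn ME the falls numbered 4 (2 to 5), with 2 without Kn ME replicate 1 or replicate 2, and the rises 1 (0 to 2). Between Kn ME and Ab ME the counts were 0 in each direction, also without any 1 array, and 1 higher with array weights. Rises in Ab ME became 0 after quantile normalization, 5 after centring, 4 with array weights and 1 with only the 6 arrays compared. Rises in Kn ME became 2 after centring or with the mean of a gene's probe sets, and 0 with the trend and robust prior, after quantile normalization, with array weights or with only the 6 arrays compared. With the replicate block the counts were 3 rises with 7 falls in Ab ME, and 0 with 4 in Kn ME. The numbers pair no samples in the labels, and same-numbered arrays deviated together by r = 0.03 to 0.27, against -0.198 to 0.09 for other pairs. Restricted to probe sets above the median of all values, 5 of 21 genes fell in Ab ME, against 9.8% of all genes there, and 4 in Kn ME, against 4.59%, while 3 rose in Ab ME, against 22.3%, and 1 in Kn ME, against 8.69%. The median difference of all genes in Ab ME was then 0.47. The causes of these shifts were not tested. Genes near the median of all values, 7 of them with means at or below it, have unknown signal over background, and the sizes of their differences are uncertain.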
